A study of Homo sapiens with 3 samples.

Results

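The let-7 target genes are 44 human genes listed as known or predicted targets of the let-7 family of microRNAs, and 35 of them were among the 12040 genes of the deposited table. Members were found in the table by their gene symbol alone, but the list itself was chosen with earlier results of these data known. The other 9 (LIN28A, TRIM71, GDF6, ACVR1C, THBS1, PLAGL1, COL1A2, CPA4 and C14orf28) have no row in the table and were not analysed here. The series holds poly(A) RNA-seq of HEK293, a human embryonic kidney cell line, in 3 libraries, 1 for RNAi against DICER1, 1 for RNAi against DROSHA and 1 for a mock transfection. All 3 came from the line labelled HEK293 T-Rex FLAG:DICER1 FLP-IN, so every library, the mock included, carries a tagged DICER1 transgene, and every title carries the unexplained label 2.5d. The labels do not say whether the transgene was switched on or whether the line is 1 clone.

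The table has no column names. It gives the authors' log2 fold changes for 2 comparisons against 1 shared library, called here the first and the second deposited comparison, and neither can be assigned to a knockdown from its label. The first minus the second fold change, computed here, compares the numerator libraries directly, since the shared library cancels. In the authors' deposited table DICER1, the enzyme that cuts microRNA precursors, was at -1.32 (first comparison) and 0.58 (second). DROSHA, which releases those precursors from the primary transcript, was at -0.11 (first) and -1.65 (second) in the authors' deposited table. Reads of the transgene may be counted in the DICER1 row. There is no replicate error and no test of conditions, and depth is unknown. The words rose and fell are kept for log2 fold changes of 0.5 or more in either direction, which is a threshold of size and not a test.

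As background, let-7 is a deeply conserved family of microRNAs that accumulates as cells differentiate and lowers the mRNAs of growth and embryonic genes. Its members share the seed, the bases that pair with sites in the 3' UTR of a target, so all of them can act on the same mRNAs. DROSHA and DICER1 cut the let-7 precursors in turn, and the RNA-binding protein LIN28 blocks both steps and is itself a let-7 target. The fetal RNA-binding proteins IGF2BP1, IGF2BP2 and IGF2BP3 and the architectural protein HMGA2 are among the best known targets.

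The mature sequences, collected by the shared let-7a seed, show where the family varies. RefSeq (GRCh38.p14) lists 11 mature microRNAs at 14 loci with the same seed, among them miR-4458 and miR-4500, and the 9 that carry the family's names are given 5′ to 3′ with the seed, bases 2 to 8, in capitals.
let-7a-5p: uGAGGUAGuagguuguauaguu
let-7b-5p: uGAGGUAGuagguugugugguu
let-7c-5p: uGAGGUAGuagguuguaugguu
let-7d-5p: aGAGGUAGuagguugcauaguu
let-7e-5p: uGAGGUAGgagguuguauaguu
let-7f-5p: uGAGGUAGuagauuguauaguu
let-7g-5p: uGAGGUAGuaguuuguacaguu
let-7i-5p: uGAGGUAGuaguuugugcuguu
miR-98-5p: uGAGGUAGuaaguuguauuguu
The seed is identical in all 9 because they were collected by it, and the differences lie outside it.

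A let-7 site in a 3' UTR was read as a match to this seed: CTACCTCA for the 8-mer, CTACCTC for the 7-mer-m8 (held by 10.2% of the genes searched, 8-mers included), TACCTCA for the 7-mer-A1 (11.2%, 8-mers included) and TACCTC for the 6-mer (25.6%, all longer forms included), on the transcript strand. In the counts of sites, each match was counted once under its longest form. Sites of 7 or 8 bases were present in 34 of the 35 genes (97.1%), against 16.6% of the 11281 genes of the table with a searched 3' UTR. An 8-mer was present in 20 (57.1%, against 3.9%), and 3 or more sites in 11 (31.4%, against 0.674%). The genes were listed as targets, which rests largely on such sites, so these shares describe the list and are no finding. The 3' UTRs of the 35 genes were also longer, with a median of 2153 bases against 1176 over all genes searched, and slightly poorer in G and C, at 38.7% against 42%. MYC was the member without a site of 7 or 8 bases in the 3' UTR searched.

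HMGA2 had the most sites, 7, in the transcript searched (its longest annotated 3' UTR, of 7421 bases in another transcript, holds none of 7 or 8 bases), followed by FIGN with 6 and by IGF2BP1, LIN28B, NR6A1 and ARID3B with 5 each. Among the 20 members with 2 or more sites, 6 had a pair starting within 50 bases of each other (30%, against 7.65% of the 340 genes of the table with 2 or more). Those 6 were IGF2BP2, STARD13, IGF2BP1, HMGA2, NR6A1 and CDC34, with start-to-start distances of 15, 17, 18, 19, 28 and 42 bases. Of the 20 members, 11 had 3 or more sites, against 76 of the 340 genes, and more sites give more pairs that can lie close. The share with a close pair therefore also describes the list and is no finding. As background, closely spaced sites are known to act together in repression.

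**Figure D1:**
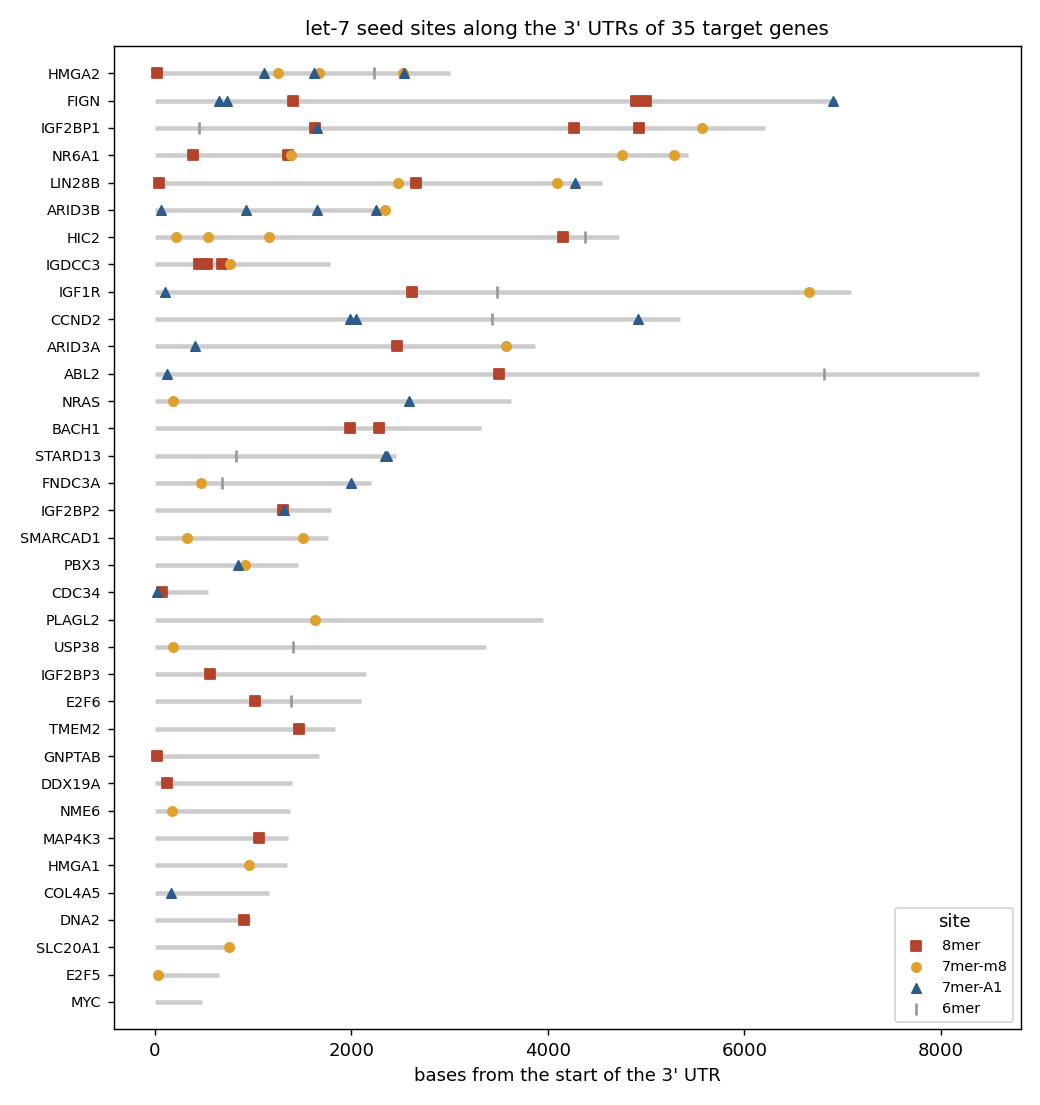
Positions of let-7 sites along the 3' UTR of each of the 35 genes, in bases from the start of the 3' UTR, with the grey bar showing its length and the marks the site class. HMGA2 at the top holds 7 sites of 7 or 8 bases, while the lower genes hold 1 and MYC none.

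The following 3' UTR sites (GRCh38, GENCODE 29, 5′ to 3′ on the transcript strand) belong to some of the members with several sites and to some of those that moved furthest, and show the seed match in its surroundings. Capitals mark the seed match.
HMGA2, chr12:65963293-65963320, plus strand: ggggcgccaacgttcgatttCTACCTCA
LIN28B, chr6:105078805-105078834, plus strand: ttcctttacccggttgcaaagtCTACCTCA
IGF2BP1, chr17:49053691-49053720, plus strand: tgggaaccagcagtgctagtaaCTACCTCA
HIC2, chr22:21450875-21450904, plus strand: tttctaccaggaccccctccccCTACCTCA
IGDCC3, chr15:65328450-65328479, minus strand: ttgctgttttggctctcagcacCTACCTCA
IGDCC3, chr15:65328368-65328397, minus strand: cccacagagcccgaatgcactcCTACCTCA
IGDCC3, chr15:65328217-65328246, minus strand: ttccagatgtgaaagaaaatgtCTACCTCA
CDC34, chr19:541598-541627, plus strand: ccgtggctccttagacgacagaCTACCTCA
BACH1, chr21:29345092-29345121, plus strand: gcatgtaatacaagtaactacaCTACCTCA
TMEM2, chr9:71683720-71683749, minus strand: ccctgtgactttacaaaatatgCTACCTCA
FNDC3A, chr13:49207838-49207867, plus strand: aaagcaatctagtgctatatttCTACCTCc
All but the FNDC3A site, a 7-mer-m8, are 8-mers.

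The let-7 targets had medians near 0 in both comparisons. The median log2 fold change of the 35 was 0.07 in the first comparison, beside 0.03 over all 12040 genes, and 0.10 in the second, beside 0.0063 over all genes. In the first comparison 20 of 35 were above 0 (57.1%, against 56.5% of all genes), and in the second 25 of 35 (71.4%, against 51.1%). For the first minus the second fold change the median was -0.09, beside 0.02 over all genes. In bulk RNA, fewer cells of a type and less RNA per cell cannot be told apart.

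Few members moved far. IGDCC3 alone rose and E2F5 alone fell in the first comparison, where 1.46% of all genes rose and 2.04% fell. FNDC3A alone rose and E2F5 alone fell in the second comparison, where 2.33% rose and 5.59% fell. Between the numerator libraries, 3 members were at 0.5 or more in the first minus the second and 3 at -0.5 or less, beside 8.60% and 4.82% of all genes. With 35 genes, counts of 1 to 3 are near these shares and say nothing particular about let-7 targets.

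**Figure D2:**
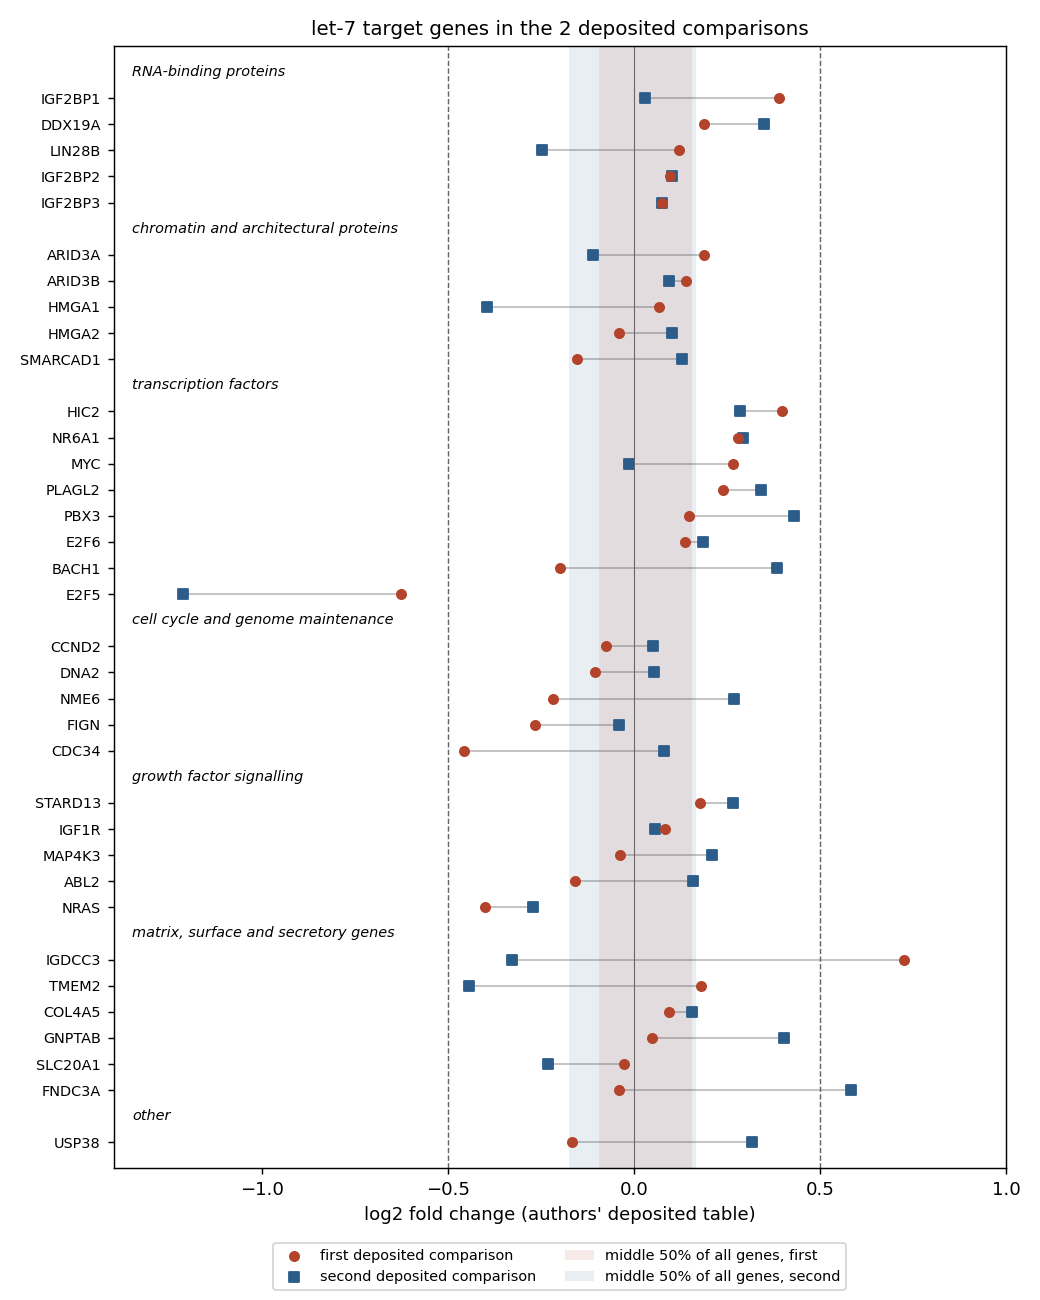
Log2 fold changes of the 35 let-7 target genes in the first (circles) and second (squares) deposited comparison, by role, with dashed lines at -0.5 and 0.5 and shading over the middle 50% of all genes. Most genes lie between the dashed lines, and E2F5, IGDCC3 and FNDC3A lie outside them.

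The RNA-binding proteins were all above 0 in the first comparison, and none passed 0.5 in either. IGF2BP1, which binds and stabilises fetal and growth-related mRNAs, was at 0.39 (first) and 0.03 (second comparison) in the authors' deposited table, the first value being above that of 96.4% of genes. Its relatives IGF2BP2 and IGF2BP3 were nearer to 0, at 0.10 and 0.10 for IGF2BP2 and 0.07 and 0.07 for IGF2BP3 in the authors' deposited table. LIN28B, which blocks let-7 maturation, was at 0.12 (first) and -0.25 (second comparison) in the authors' deposited table. The IGF2BP genes differ in the number of sites, 5 in IGF2BP1, 2 in IGF2BP2 and 1 in IGF2BP3. The RNA helicase DDX19A stood at 0.19 and 0.35 in the authors' deposited table, and reads of its close relative DDX19B may be counted with it.

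The chromatin and architectural genes stayed within 0.5 in both comparisons. HMGA2, with 7 sites, was at -0.04 (first) and 0.10 (second comparison) in the authors' deposited table, both inside the middle 50% of all genes. HMGA1, its relative with 1 site, lay at 0.07 and -0.40 in the authors' deposited table, and pseudogene copies make its value less certain. ARID3A and ARID3B, DNA-binding proteins of the ARID family, were at 0.19 and -0.11 and at 0.14 and 0.09 in the authors' deposited table. ARID3B was thus above 0 in both. SMARCAD1, a chromatin remodeller, lay at -0.16 and 0.13 in the authors' deposited table.

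Of 8 transcription factors, 6 were above 0 in each comparison, and E2F5 stood apart. E2F5, a repressive E2F factor of the cell cycle, was at -0.63 (first) and -1.21 (second comparison) in the authors' deposited table, below all but 0.997% and 0.307% of genes. It has 1 let-7 site, a 7-mer-m8. The authors' deposited table listed its relative E2F6, with 1 8-mer, at 0.14 and 0.18. The factors above 0 in both were led by HIC2, a zinc finger repressor, at 0.40 and 0.28, and NR6A1, the orphan nuclear receptor of germ cells, at 0.28 and 0.29, in the authors' deposited table. PLAGL2, a zinc finger activator, was at 0.24 and 0.34, and PBX3, a homeodomain cofactor of HOX proteins, at 0.15 and 0.43, in the authors' deposited table. These stayed below 0.5, and each value in both comparisons contains the same shared library. MYC was at 0.27 and -0.01, and BACH1, a repressor of haem and oxidative stress genes, at -0.20 and 0.38, in the authors' deposited table.

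All 5 genes of the cell cycle and genome maintenance were below 0 in the first comparison and none fell. CDC34, a ubiquitin-conjugating enzyme that acts on cell cycle inhibitors, was lowest at -0.46 (first comparison) and stood at 0.08 (second) in the authors' deposited table. FIGN, a microtubule-severing enzyme with 6 let-7 sites, was at -0.27 and -0.04, and NME6, of the nucleoside diphosphate kinase family, at -0.22 and 0.27, in the authors' deposited table. DNA2, a nuclease-helicase of DNA replication, was at -0.10 and 0.05, and CCND2, cyclin D2, at -0.08 and 0.05, in the authors' deposited table. All 5 were lower in the first numerator library than in the second, by differences from -0.13 for CCND2 to -0.54 for CDC34. CDC34 alone of them passed 0.5 in size. Above 0 in this difference were 53.4% of all genes and 13 of the 35 members (37.1%). The cell cycle factor E2F5, grouped here with the transcription factors, was among those 13, at 0.59.

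In growth factor signalling the RAS gene NRAS was the lowest in both comparisons, at -0.40 and -0.27 in the authors' deposited table. IGF1R, the receptor of insulin-like growth factors, was near 0 at 0.08 and 0.05 in the authors' deposited table, and its 3' UTR holds 3 sites. The kinases ABL2 and MAP4K3 were at -0.16 and 0.16 and at -0.04 and 0.21, and STARD13, a GTPase-activating protein, at 0.18 and 0.27, in the authors' deposited table. None of the 5 rose or fell.

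The matrix, surface and secretory genes held the highest member of each comparison. IGDCC3, an immunoglobulin-domain membrane protein of the embryo with 4 sites (8-mers at bases 453, 535 and 686 of the 3' UTR and a 7-mer-m8 at base 763), was at 0.72 (first comparison, above 99.5% of genes) and -0.33 (second) in the authors' deposited table. FNDC3A, a fibronectin-domain protein, showed the other order, at -0.04 (first comparison) and 0.58 (second, above 98.8% of genes) in the authors' deposited table. The genes were thus highest in different comparisons, and TMEM2 followed the order of IGDCC3. TMEM2, a cell-surface hyaluronidase, was at 0.18 and -0.44, and SLC20A1, a phosphate transporter, at -0.03 and -0.23, in the authors' deposited table. COL4A5, a collagen gene, was at 0.09 and 0.15, and GNPTAB, which tags lysosomal enzymes with mannose 6-phosphate, at 0.05 and 0.40, in the authors' deposited table. USP38, a deubiquitinase outside these groups, lay at -0.17 and 0.32 in the authors' deposited table.

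Numerator libraries differed most from each other for IGDCC3, whose first minus second fold change was 1.05, above that of any other member. TMEM2 followed at 0.63 and E2F5 at 0.59. At the other end stood FNDC3A at -0.62, BACH1 at -0.58 and CDC34 at -0.54. E2F5 was negative in both comparisons, while the other 5 had opposite signs in the pair. Adjusted for the length and GC content of the 3' UTR, IGDCC3 was at 0.66 and E2F5 at -0.59 in the first comparison, and CDC34 there passed 0.5 in size, at -0.61. In the second comparison the adjusted values were 0.51 for FNDC3A and -1.26 for E2F5, both still past 0.5 in size. The adjusted difference was -0.49 for FNDC3A and -0.48 for BACH1, under 0.5 in size, while NME6 passed it at -0.55 and CDC34 was lowest at -0.83.

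Number and class of sites did not order the members. Over the 35, the Spearman correlation of the number of sites with the log2 fold change was 0.14 for the first comparison and -0.09 for the second, a description over genes that share their libraries. Members with 3 or more sites had medians of 0.14 and 0.05 (11 genes), those with 2 sites -0.16 and 0.16 (9 genes), and those with 1 site 0.06 and 0.17 (14 genes), in the first and second comparison. All 9 members with 2 sites were lower in the first numerator library than in the second, with a median difference of -0.28, whereas 7 of the 11 with 3 or more sites were higher. Over the whole table, 47.3% of the 264 genes with 2 sites and 47.4% of the 76 with 3 or more were higher in the first numerator library. The 20 members with an 8-mer had medians of 0.09 and 0.09, and the 15 without one -0.03 and 0.13. The member with the most sites, HMGA2, was near 0 in both comparisons, and the 8-mer-rich IGDCC3 and FIGN lay on opposite sides of 0 in the first.

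**Figure D3:**
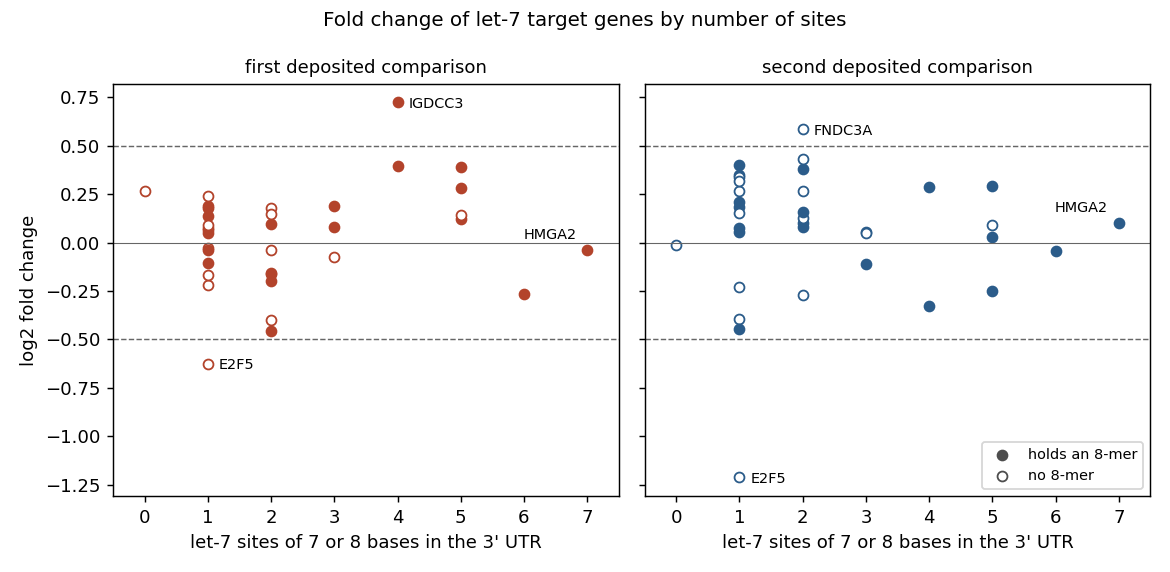
Log2 fold change against the number of let-7 sites of 7 or 8 bases for the 35 genes, in the first and second deposited comparison, with filled points for genes holding an 8-mer and dashed lines at -0.5 and 0.5. IGDCC3 with 4 sites and E2F5 with 1 lie outside the lines in the first comparison, FNDC3A with 2 and E2F5 in the second, and HMGA2 with 7 lies near 0 in both.

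Genes of the whole table with a let-7 site also had medians near 0. The 440 genes with an 8-mer had a median of 0.0074 in the first comparison, against 0.04 for the 8396 genes with no let-7 match. In the second comparison the medians were 0.05 with an 8-mer and 0.0057 with no match. Adjusted for the length and GC content of the 3' UTR, they were 0.0008 and 0.0058 in the first comparison and 0.05 and 0.03 in the second. Thus the 8-mer genes lay 0.03 below the genes without a match in the first comparison and 0.05 above them in the second, and adjustment narrowed both gaps. These gaps were not tested.

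**Figure D4:**
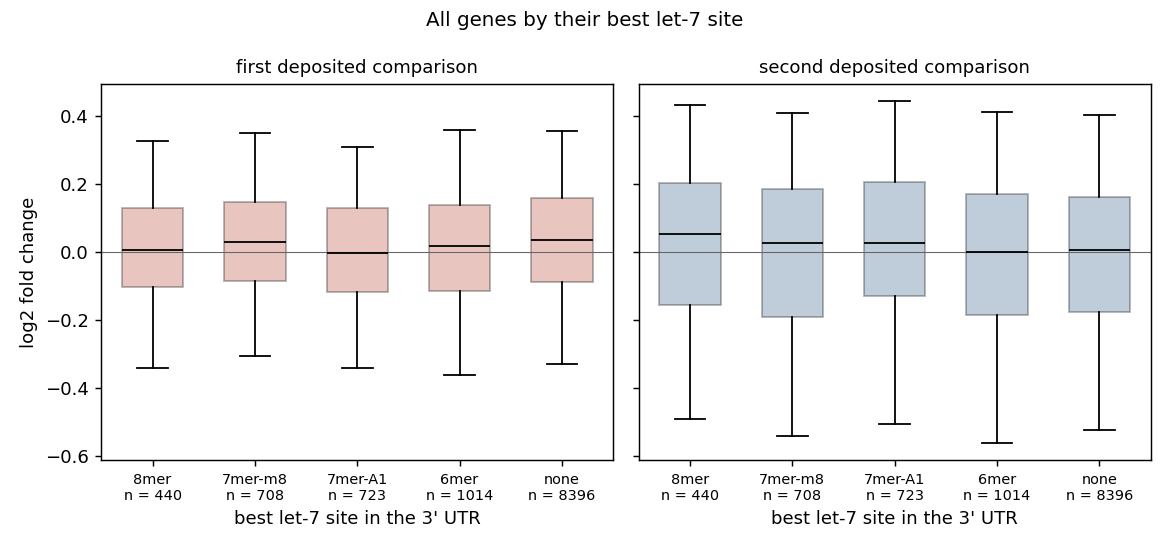
Log2 fold changes of all 11281 genes searched, by the best let-7 site in the 3' UTR, in the first and second deposited comparison; boxes show quartiles and median, whiskers the 5th and 95th percentile of genes. The boxes overlap almost fully, with medians from -0.0011 to 0.04 in the first comparison and from 0.0017 to 0.05 in the second.

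The same measure was taken for 8 other microRNA seeds as a scale. In the second comparison 8-mer genes minus genes with no match gave 0.05 for let-7, against 0.13 for miR-92a-3p, 0.11 for miR-17-5p, 0.10 for miR-19b-3p and 0.06 for miR-16-5p. The values for miR-21-5p, miR-1-3p and miR-10a-5p were 0.07, 0.03 and 0.03, and that for miR-122-5p, a liver microRNA, was -0.04. Without adjustment, all 9 of the first comparison lay between -0.07 and -0.0011, with let-7 at -0.03. Adjusted for 3' UTR length and GC content, 6 of the 9 gaps of the first comparison were above 0, up to 0.03 for miR-92a-3p, and let-7 was the lowest at -0.0050, next to miR-122-5p at -0.0047. In the second comparison the adjusted gap was 0.03 for let-7, the same as for miR-1-3p at 0.03, with miR-21-5p at 0.02. The lowest was -0.02 for miR-122-5p and the highest 0.08 for miR-92a-3p. Differences between seeds were not tested.

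**Figure D5:**
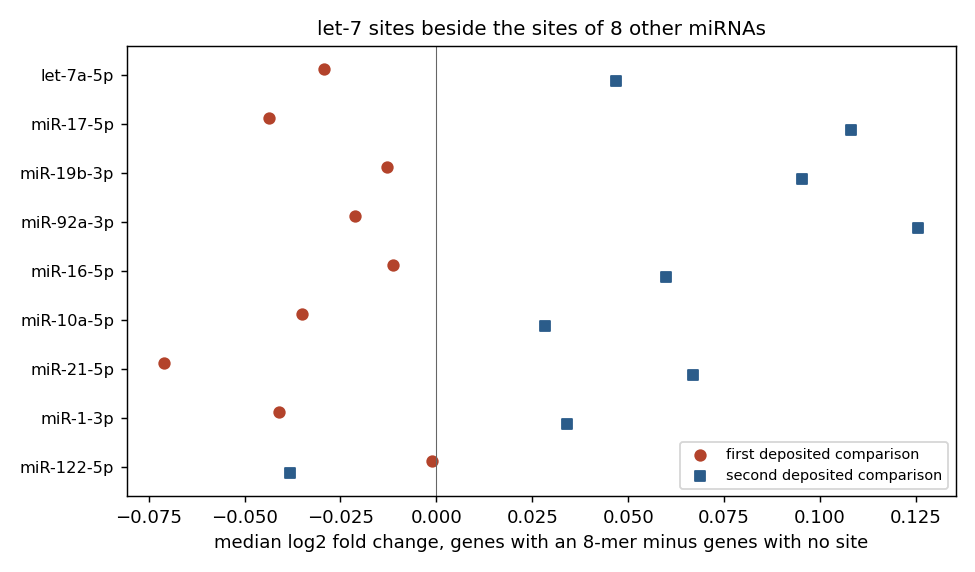
Median log2 fold change of genes with an 8-mer minus that of genes with no match, for let-7 and 8 other microRNA seeds, in the first (circles) and second (squares) deposited comparison. In the second comparison let-7 lies at 0.05, below miR-92a-3p at 0.13 and above miR-122-5p at -0.04.

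Among the genes with the most let-7 sites in the table, HEMK1 and ONECUT2 were not members. With 6 sites each, HEMK1 stood at 0.26 and -0.12 and ONECUT2 at 0.16 and 0.25 in the authors' deposited table. Neither passed 0.5 in size in either comparison.

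A further list of 43 let-7 targets outside the members had 35 genes in the table, with medians of -0.0072 (first comparison) and 0.07 (second). In the first comparison 2 rose and 1 fell: CPEB1, a regulator of poly(A) tails, at 0.76, IRS2, an insulin receptor substrate, at 0.65, and DICER1, itself a let-7 target, at -1.32, in the authors' deposited table. Of all genes, 1.46% rose and 2.04% fell there. In the second 5 of the 35 fell, beside 5.59% of all genes, and RRM2, a subunit of ribonucleotide reductase, was lowest at -1.64 in the authors' deposited table. LIMD2 at -0.74 and the phosphatase DUSP9 at -0.67 were next in the authors' deposited table. The fallen genes also included RDH10 and RAB11FIP4, while DICER1 rose. DICER1 was also the target of RNAi in 1 library.

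Most genes that make and control let-7 stayed below 0.5 in size. Of 28 listed, 26 were in the table, with medians of 0.03 and 0.0094. No gene of the list rose in the first comparison, and DICER1 fell. In the second, DROSHA, ADAR and DDX17 fell and DICER1 and DGCR8 rose, so 5 of 26 passed 0.5 (19.2%), DICER1 and DROSHA being the RNAi targets, beside 2.33% of all genes that rose and 5.59% that fell. ADAR, an RNA-editing enzyme, was at -0.76, DDX17, a helicase that assists DROSHA, at -0.55, and DGCR8, the partner of DROSHA, at 0.54, in the authors' deposited table. The uridylyltransferases ZCCHC11 and ZCCHC6, which mark let-7 precursors bound by LIN28, were at 0.03 and 0.14 and at -0.20 and 0.13 in the authors' deposited table. DIS3L2, the nuclease that degrades the marked precursors, lay at 0.09 and -0.06 in the authors' deposited table.

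All 11 genes of the complex through which let-7 acts were in the table, with medians of 0.03 and 0.04. None passed 0.5 in the first comparison. In the second, where 2.33% of all genes rose and 5.59% fell, EIF2C3, an Argonaute, rose to 0.53 and TNRC6A, a GW182 protein, fell to -0.55 in the authors' deposited table. Mature let-7 was not measured here. Of the annotated genes around the 14 loci, HUWE1 and WDR82 were in the table: MIRLET7F2 and MIR98 lie in introns of HUWE1, and MIRLET7G in an intron of WDR82, on the same strand. HUWE1 was at 0.19 and -0.09 and WDR82 at 0.32 and 0.27 in the authors' deposited table, and poly(A) RNA of a host gene does not give the level of the microRNA in its intron.

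Members were also described by 3' UTR sequences other than the let-7 site. Earlier work on this table picked 4 7-mers because genes with them in the 3' UTR had low fold changes. They are CAATCTA, which 5.3% of the genes searched hold, AATCTAA (11.6%), which overlaps it by 6 bases, GTGACTT (14%), and TGACTTA (11.6%), which overlaps GTGACTT by 6 bases. All were searched on the transcript strand, and 16 of the 35 members hold at least 1 (45.7%, against 29% of all genes searched). In the first comparison these 16 had a median of -0.06, with 5 above 0, and the 19 others a median of 0.14, with 15 above 0. In the second the medians were 0.09 and 0.10. The 7-mers were picked from these fold changes, so the split is not independent, and the part they play in any member's value was not tested. The sites shown above place GTGACTT beside the let-7 8-mer of TMEM2 and CAATCTA beside the 7-mer of FNDC3A. E2F5, which fell in both comparisons, holds none of the 4, and neither do HIC2, NR6A1 and LIN28B.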

How the data were processed

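Poly(A) RNA of 3 HEK293 libraries was measured, 1 per group, so grouping gives no replicate and the values carry no error. The authors deposited 1 table without a header for the whole series. Its 2 columns of log2 fold changes were made by the authors, and a check on the values found each to be the log2 ratio of a level to 1 shared level after 1 was added to each, for all 12040 genes within 1e-11. Because of the added 1, fold changes are understated where levels are low. The 3 columns of levels carry no name that matches a library and were not used otherwise. Members were therefore not set beside genes of matched level, and levels of marker genes were not used to check the cell line. Every gene listed had a shared level above 1. Per the submitters' processing notes, the build was hg19 and the tools were SAMtools, TopHat2 2.06, CASAVA 1.8.2, Cuffdiff 2.1.1 and Cufflinks, without the step each served.

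The difference of both fold changes, medians, counts at a size of 0.5 and percentages of all genes lower were computed with Python 3.11.15, pandas 2.3.3 and numpy 2.4.6. Transcripts came from GENCODE 29 on GRCh38, which is not the build of the table, and gave only sequences and the positions of sites. Symbols were matched directly or through older names for 11357 genes, of which 11281 had 50 or more bases of 3' UTR, and 1 transcript per gene was searched, APPRIS principal first. Adjusted values are residuals of a least-squares fit on the logarithm of 3' UTR length and on GC content, each with a squared term, over all 11281 genes. The site search and the fit were tested on simulated data. No test of conditions was possible. The members and lists were chosen with earlier results of these data known. All members were eligible to be named, together with the genes of the let-7 pathway lists, the 3 highest and 3 lowest of the further list in each comparison and the 10 genes with most sites. 1 gene that this rule names is not reported here. Alternatives in threshold, centring, adjustment and site definition were computed.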

Additional observations from a re-analysis of the deposited data

Results flagged for a closer look

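A member is given here where its fold changes in the pair of comparisons had opposite signs and differed by at least 0.5. This held for 5 of 35 members (14.3%), against 11.1% of all genes, and with 1 library per group no difference was tested. Subtracting the second fold change from the first gave 1.05 for IGDCC3 and 0.63 for TMEM2. It gave -0.62 for FNDC3A, -0.58 for BACH1 and -0.54 for CDC34. Adjusted for 3' UTR length and GC content, FNDC3A at -0.49 and BACH1 at -0.48 no longer reached 0.5 in size. All 5 hold at least 1 of the 4 7-mers named above, as do 45.7% of the members and 29% of all genes searched. The 7-mers and these 5 members were both picked from the same fold changes, so the overlap is not independent. The part of the 7-mers was not tested.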

How the results depend on the processing

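Of the members, 6, 11 and 13 passed a size of 0.3 in the first comparison, the second comparison and the difference, and 0, 1 and 1 passed a size of 1. Shares of all genes at these 2 sizes are not given here, so these counts say nothing particular about let-7 targets. The counts at 0.5 stayed within 1.5 times the main ones after re-centring, after adjustment for 3' UTR length and GC content, and among members with a let-7 site. The medians of the members kept their sign under every alternative computed: re-centring, adjustment, the mean, members with a site, members without the listed 7-mers, and, chosen after seeing the data, without E2F5. Their sizes moved: without members holding the listed 7-mers the median was 0.14 in the first comparison and -0.0054 in the difference, against 0.07 and -0.09 with them, and the means were 0.03, 0.06 and -0.03. The median of all genes with a let-7 8-mer in the first comparison turned from 0.0074 to -0.023 when re-centred on the median of all genes, and was 0.066 without genes holding the listed 7-mers, which were picked from these values. Without those genes the median of the difference turned from -0.029 to 0.012. The other alternatives for genes with an 8-mer kept the sign. Searching the longest annotated 3' UTR, chosen after seeing the data, left no let-7 site of 7 or 8 bases in HMGA2, GNPTAB and DNA2. No paired analysis was possible because each group has 1 library. Another added value and a filter on low levels were not run, so the dependence of the values on low levels was not examined, and depth is unknown.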
